A study of Saccharomyces cerevisiae with 27 samples.

Results

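Glycerol synthesis, breakdown and uptake were followed in Saccharomyces cerevisiae through 7 genes picked by their systematic names. GPD1 (YDL022W) and GPD2 (YOL059W) encode the NAD-dependent glycerol 3-phosphate dehydrogenases, and GPP1 (YIL053W) and GPP2 (YER062C) the glycerol 3-phosphatases. GUT1 (YHL032C) encodes glycerol kinase, GUT2 (YIL155C) the mitochondrial FAD-dependent glycerol 3-phosphate dehydrogenase, and STL1 (YDR536W) the glycerol and proton symporter of the plasma membrane. They were 7 of the 6692 genes in the deposited table, and 7 of 7 passed the filter on low values in every comparison.

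Yeast makes glycerol from dihydroxyacetone phosphate, an intermediate of glycolysis. A Gpd enzyme reduces it to glycerol 3-phosphate with NADH, and a Gpp enzyme then removes the phosphate, so the route both reoxidizes cytosolic NADH and supplies the cell's main compatible solute under osmotic stress. GPD1 and GPP2 are known as osmotic-stress genes and GPD2 and GPP1 as genes used when respiration is limited. Glycerol that has been released can be taken up again by Stl1, phosphorylated by Gut1 and oxidized by Gut2, whose electrons enter the respiratory chain. In glucose-grown cells GUT1, GUT2 and STL1 are known to be repressed by glucose.

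The study asked which substances in the medium left by calorie-restricted yeast cultures act on cells grown in normal glucose, and RNA-seq was one of its readouts. In all groups the cells were BY4741, a MATa laboratory strain that lacks LEU2, URA3 and MET17 and has HIS3 partly deleted. They were grown in synthetic complete medium with 2% glucose. At inoculation the cultures received 2% by volume of concentrated medium from calorie-restricted stationary cultures (CRCM), the same volume of concentrated medium from normally grown stationary cultures (NRCM), or water. Cells were taken in log phase, at 24 h and at 96 h, with 3 biological replicates in each of the 9 groups, giving 27 libraries. Each supplement thus stands for a whole mixture of metabolites, and no group received fresh concentrated medium.

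Levels are given as CPM (reads of a gene per 1000000 reads of the library) divided by TMM factors, scaling factors that bring the bulk of genes to a common level over the 27 libraries. A CPM is a share of a library's reads, so a change in the amount of RNA per cell, or in the fraction of cells in one state, cannot be told apart from a change in the gene itself. A gene was called higher or lower in a comparison where limma's Benjamini-Hochberg adjusted p was under 0.05. The library totals, recovered from the deposited shares, lay between 7397926 and 114322286 reads (median 12375000). The highest was that of CRCM 24 h replicate 3, beside 10239509 and 7817500 reads in replicates 1 and 2. In log phase the water libraries held at least 18671140 reads, the CRCM libraries at most 14408530 and the NRCM libraries at most 15396610. The fewest reads behind a value of the 7 genes were 58, for STL1 in CRCM log-phase replicate 3. The MATa markers MFA1, MFA2 and STE2 read 78.8 to 2119 CPM over the 27 libraries and the MATalpha markers MFALPHA1, MFALPHA2 and STE3 read 1.74 to 50.2 CPM. MET17 was at 0 throughout. LEU2 and URA3 read at most 0.195 and 0.125 CPM in 26 libraries, but 57.9 and 9.95 CPM in CRCM 96 h replicate 3, a library that goes against the strain's genotype. Values without that library are therefore given beside some of the 96 h CRCM results of the 7 genes. The pathway lists, the mean shares of the paralog pairs and the likeness of profiles include it and were not computed without it.

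On the R64 genome, which is the sacCer3 build, GPD1 lies on the plus strand at chrIV:411825-413000, GPD2 on the plus strand at chrXV:217126-218448 and GPP1 on the plus strand at chrIX:255115-255867. GPP2 lies on the minus strand at chrV:279930-280682, GUT1 on the minus strand at chrVIII:36379-38508, GUT2 on the minus strand at chrIX:51759-53708 and STL1 on the plus strand at chrIV:1508005-1509714. These intervals are the coding sequences from start to stop codon, and 0 of the 7 overlapped another gene of the RefSeq annotation. The annotation behind the deposited values was not given and holds YDL023C, a neighbour of GPD1 by systematic name that RefSeq does not list. As set out further on, its reads cannot be told apart from those of GPD1, which holds for all GPD1 values below. The DNA from 450 to 151 bases before the start codon was searched for the stress response element, STRE, the letters CCCCT on either strand, which the factors Msn2 and Msn4 are known to bind. An STRE was present in the windows of GPD1, GPD2, GPP2, GUT1, GUT2 and STL1, against 23.4% of 6000 windows in the genome. In the window from 250 bases before to 50 bases after the start codon it was present for GPD1, GPD2, GUT1, GUT2 and STL1, against 21.6% of 6001. The 2 windows overlap, and the matches of GUT1 (-180), GUT2 (-157) and STL1 (-175) are the same in both. Only GPD1 (-34) and GPD2 (-14) had further matches in the nearer window. A match is only a run of letters and does not show binding. The windows of GPD1, GPD2 and GUT2, the genes that were lower in CRCM cultures than in water cultures at 24 h, follow here on the coding strand, 5′ to 3′, with the STRE letters in capitals.
GPD1, chrIV:411375-411674, plus strand: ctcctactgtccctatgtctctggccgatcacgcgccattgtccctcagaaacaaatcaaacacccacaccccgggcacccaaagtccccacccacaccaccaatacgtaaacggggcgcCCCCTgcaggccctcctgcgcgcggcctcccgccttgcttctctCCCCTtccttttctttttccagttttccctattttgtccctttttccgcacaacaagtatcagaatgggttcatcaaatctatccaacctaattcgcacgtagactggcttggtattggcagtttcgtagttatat
GPD2, chrXV:216676-216975, plus strand: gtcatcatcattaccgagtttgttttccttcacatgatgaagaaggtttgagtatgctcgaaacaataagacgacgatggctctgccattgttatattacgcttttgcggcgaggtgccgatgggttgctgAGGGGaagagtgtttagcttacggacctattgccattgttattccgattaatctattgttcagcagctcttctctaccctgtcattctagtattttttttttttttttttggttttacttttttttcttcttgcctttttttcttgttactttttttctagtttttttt
GUT2, chrIX:53859-54158, minus strand: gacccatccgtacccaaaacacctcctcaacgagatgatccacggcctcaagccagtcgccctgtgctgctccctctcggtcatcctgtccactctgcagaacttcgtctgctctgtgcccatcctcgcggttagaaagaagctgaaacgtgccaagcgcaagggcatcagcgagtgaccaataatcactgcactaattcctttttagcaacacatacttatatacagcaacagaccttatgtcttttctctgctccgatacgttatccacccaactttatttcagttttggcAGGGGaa
The capitals fall at 2 places in GPD1, as CCCCT, and at 1 place each in GPD2 and GUT2, as the reverse complement AGGGG. A GGGACAAA motif, the type bound by Hot1, was found in the same window of GPD1 and of STL1, against 0.767% of windows in the genome. In STL1 it shared bases with the STRE. CCAAT, the core letters of the Hap2-3-4-5 site, was found in GPD1, GUT1, GUT2 and STL1, against 45.1% of windows. CATGTG, the core of the Ino2-Ino4 site, was found in GPD2 and GUT1, against 9.65%. The Cat8 and Sip4 type motif was found in GPD1 and GPP2, against 14.6%.

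In log phase the most abundant of the 7 transcripts was that of GPP1 and the rarest that of STL1. Per kilobase of coding sequence, GPP1 averaged 1738 ± 83.7 CPM in CRCM cultures, 1816 ± 132 in NRCM cultures and 1599 ± 126 in water cultures (SD, n = 3 each). STL1 averaged 5.55 ± 0.293, 6.73 ± 1.85 and 7.96 ± 3.27 CPM per kilobase in the same 3 groups. The uptake gene was thus scarce at the time when the phosphatase gene of the last step of synthesis had its highest group means.

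None of the 7 genes was called in any of the 3 log-phase comparisons of supplements. Over all 6483 genes tested, limma called 0% for CRCM against water, 0.0154% for NRCM against water and 0% for CRCM against NRCM, and 234, 519 and 53 genes had an unadjusted p under 0.05. On recovered reads edgeR and DESeq2 called 0 of the 7 genes as well. Over all genes DESeq2 called 0 for CRCM against water, 10 higher and 8 lower for NRCM against water and 1 higher and 3 lower for CRCM against NRCM. The lowest adjusted p of the 7 genes was that of GPD1 for NRCM against water, 0.618, at a log2 fold change of 0.45 ± 0.21 (SE) with overlapping groups. GPP2 had 277, 300 and 241 CPM in CRCM cultures, 250, 216 and 298 in NRCM cultures and 213, 187 and 207 in water cultures. Both supplemented groups lay wholly above water, and the log2 fold change of GPP2 was 0.41 ± 0.17 for CRCM and 0.31 ± 0.17 for NRCM, with adjusted p of 0.998 and 0.654. No overlap between groups was found for 1 of the 7 genes in each of these comparisons with water, against 8.13% and 9.55% of all genes. GUT2 varied most among log-phase replicates, at 42.9, 38.5 and 94.1 CPM in CRCM, 32.4, 38.7 and 105 CPM in NRCM and 49.1, 30.5 and 78.6 CPM in water. Replicate 3 was the highest in each group, and the groups overlapped throughout.

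Between log phase and 24 h the breakdown and uptake genes rose in cultures with every supplement, and GPP1 fell. In CRCM cultures 3 of the 7 genes rose and 3 fell, where 76% of 6658 genes were called, 38.4% higher and 37.6% lower. In NRCM cultures 5 rose and 2 fell, where 78.5% of genes were called, 38% higher and 40.5% lower. In water cultures 5 rose and 2 fell, where 76.1% were called, 36.3% higher and 39.8% lower. The 2 times did not overlap for 6 of the 7 genes with CRCM, 7 with NRCM and 7 with water, against 83.1%, 75.6% and 75.6% of all genes. Since most genes in the table were called, the counts alone do not set these genes apart, and the sizes carry the description.

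**Figure D1:**
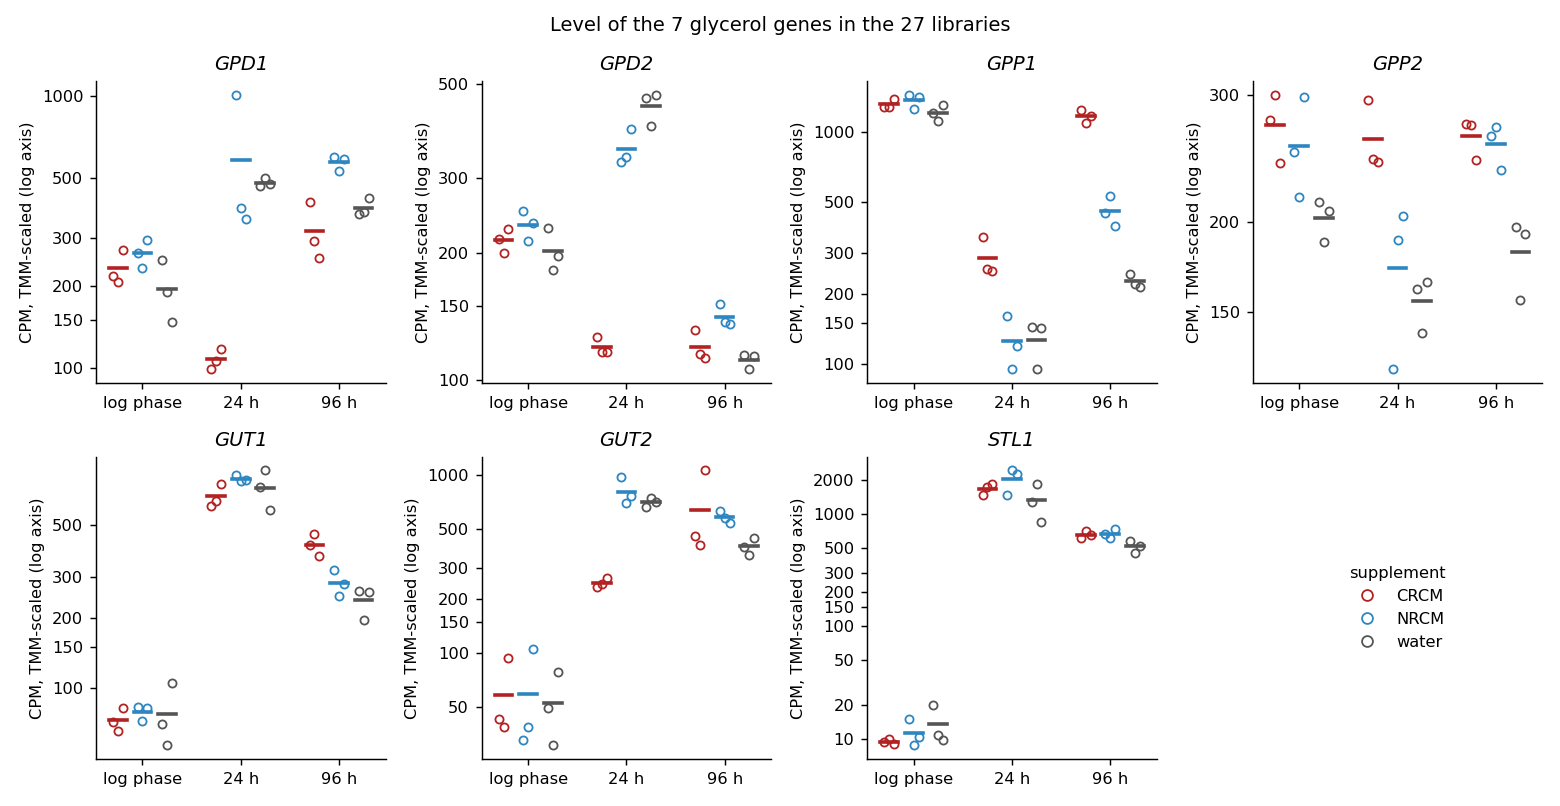
Level of each gene in CPM divided by TMM factors (vertical log axis) in log phase, at 24 h and at 96 h, with 1 circle per library and a bar at the mean of the 3 replicates of CRCM, NRCM and water cultures. STL1 stood near 10 CPM in log phase and at 846 CPM or more in every 24 h library, and GPP1 at 96 h was ordered CRCM, NRCM, water from high to low with no overlap.

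STL1 made the largest move of the 7. It read 9.39, 10 and 9.03 CPM in log phase and 1465, 1709 and 1817 CPM at 24 h in CRCM cultures. In NRCM cultures it read 15, 8.88 and 10.6 CPM in log phase and 1455, 2408 and 2234 CPM at 24 h, and in water cultures 20, 10.9 and 9.9 CPM in log phase and 1259, 1830 and 846 CPM at 24 h. Every 24 h library lay far above every log-phase library. The log2 fold change, on the log2(CPM + 1) scale, was 7.31 ± 0.24 with CRCM (158-fold, adjusted p = 3.9e-18), 7.34 ± 0.24 with NRCM (162-fold, adjusted p = 3.1e-18) and 6.48 ± 0.24 with water (89.5-fold, adjusted p = 2.5e-17). At 24 h STL1 was also the highest of the 7 per kilobase, at 973 ± 105 CPM in CRCM cultures, 1189 ± 297 in NRCM cultures and 767 ± 289 in water cultures.

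GUT1, which commits glycerol to breakdown by phosphorylating it, rose by a similar amount with each supplement. It averaged 73.5 ± 8.32 CPM in log phase and 660 ± 75.4 at 24 h in CRCM cultures, 79.5 ± 6.06 and 787 ± 26.0 in NRCM cultures, and 77.7 ± 25.0 and 718 ± 138 in water cultures. The log2 fold changes were 3.15 ± 0.18, 3.29 ± 0.18 and 3.22 ± 0.18 in that order of groups, and the log-phase and 24 h libraries did not overlap. GUT2, the next enzyme, rose by a log2 fold change of 2.18 ± 0.38 in CRCM cultures (adjusted p = 1.1e-05), 3.94 ± 0.38 in NRCM cultures (adjusted p = 7.6e-10) and 3.81 ± 0.38 in water cultures (adjusted p = 1.5e-09). Its rise with CRCM was thus the smallest of the 3, and the direct comparison at 24 h is given further on.

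GPP1 fell in all 3 sets of cultures between log phase and 24 h, with log2 fold changes of -2.20 ± 0.18 with CRCM, -3.47 ± 0.18 with NRCM and -3.25 ± 0.18 with water (adjusted p = 3.5e-11, 7.3e-15 and 2.5e-14). The phosphatase thus dropped 4.59-fold, 11-fold and 9.5-fold. Its paralog GPP2 moved far less. GPP2 fell by 0.58 ± 0.16 with NRCM (adjusted p = 0.00161) and by 0.38 ± 0.16 with water (adjusted p = 0.0301), and had a log2 fold change of -0.07 ± 0.16 with CRCM (adjusted p = 0.714). The GPP2 call in water cultures was lost without water log-phase replicate 1 (-0.34), without water log-phase replicate 3 (-0.36) and without water 24 h replicate 2 (-0.31). It was also lost with DESeq2 on recovered reads (-0.31, adjusted p = 0.0666) and with only the 6 libraries compared in the limma fit (-0.33, adjusted p = 0.0706).

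The dehydrogenase genes GPD1 and GPD2 moved in opposite directions with CRCM and with the other supplements. GPD1 read 218, 207 and 271 CPM in log phase and 98.7, 106 and 118 CPM at 24 h in CRCM cultures, a fall of 1.10 ± 0.26 on the log2 scale (adjusted p = 0.000456). In NRCM cultures it read 263, 233 and 295 CPM in log phase and 1007, 388 and 352 CPM at 24 h, a rise of 0.97 ± 0.26 (adjusted p = 0.00141). The NRCM rise rested in large part on 24 h replicate 1, and without that library it was 0.49 and still called (adjusted p = 0.0193). In water cultures it read 249, 190 and 148 CPM in log phase and 466, 496 and 472 CPM at 24 h, a rise of 1.32 ± 0.26 (adjusted p = 5.8e-05). The 24 h libraries lay below the log-phase libraries with CRCM and above them with NRCM and with water. GPD2 had the same directions, with log2 fold changes of -0.83 ± 0.11 with CRCM, 0.59 ± 0.11 with NRCM and 1.14 ± 0.11 with water (adjusted p = 2.6e-07, 3.5e-05 and 1.3e-09). These 3 time comparisons share no libraries with each other.

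**Figure D2:**
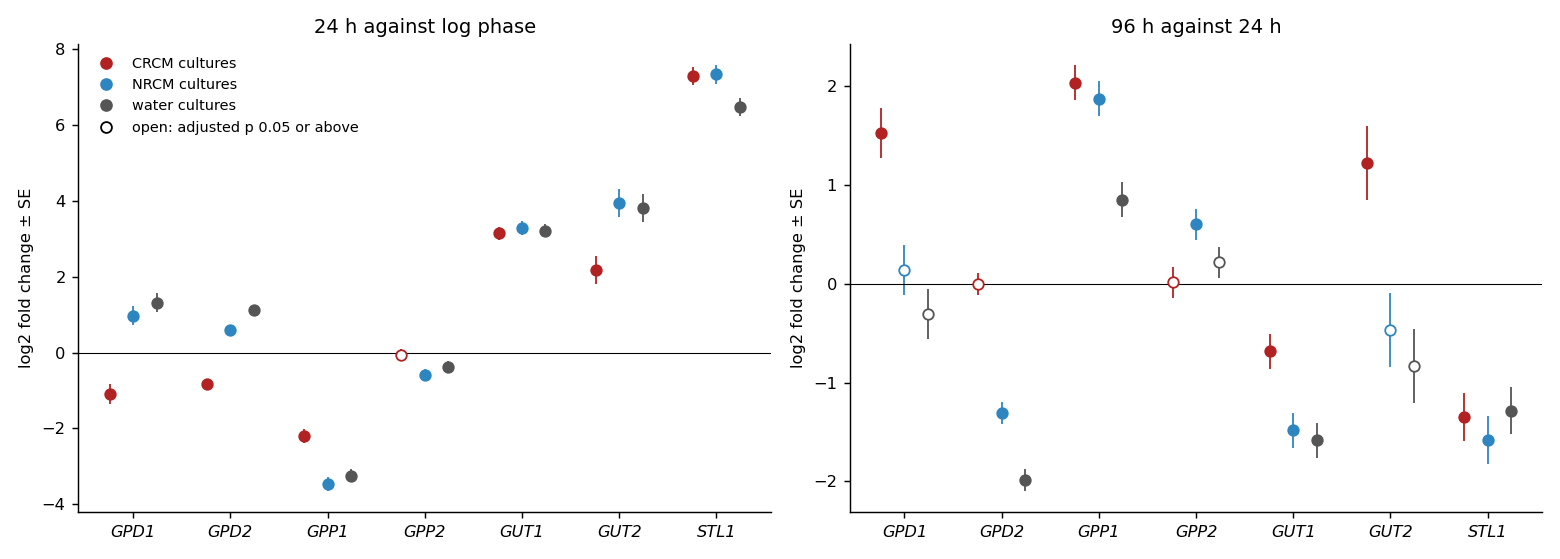
Log2 fold change ± SE of each gene between 24 h and log phase (left) and between 96 h and 24 h (right) in CRCM, NRCM and water cultures, with filled points where the adjusted p was under 0.05 and a different vertical scale in each panel. GPD1 and GPD2 lie below 0 with CRCM and above 0 with NRCM and water on the left, and STL1 lies between 6.48 and 7.34 in all 3.

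At 24 h the supplements parted. With CRCM, the genes of the first step of synthesis and of the last step of breakdown were lower than with water, both phosphatase genes were higher, and GUT1 and STL1 were not called. GPD1 was 4.45-fold lower, GPD2 3.71-fold lower and GUT2 2.84-fold lower, while GPP1 was 2.23-fold higher and GPP2 1.66-fold higher. Thus 5 of the 7 genes were called, 2 higher and 3 lower, where 51.5% of 6577 genes were called, 27.2% higher and 24.3% lower. The median log2 fold change of the 7 was -0.12, against 0.02 over all genes tested. Groups did not overlap for 5 of the 7, against 68.6% of all genes, so it is again the sizes rather than the count that describe these genes.

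GPD1 read 98.7, 106 and 118 CPM in the CRCM libraries, against 466, 496 and 472 CPM in the water libraries. The 3 CRCM libraries were all low and close to each other, the 3 water libraries were all high, and the groups were far apart. The log2 fold change was -2.15 ± 0.32 (adjusted p = 0.000552), larger in size than that of 98.9% of the genes tested. GPD2 read 127, 116 and 117 CPM in the CRCM libraries, against 465, 400 and 473 CPM in the water libraries. Its replicates were tight, the groups did not overlap, and its log2 fold change was -1.89 ± 0.10 (adjusted p = 3.8e-06).

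Among the breakdown genes, GUT2 read 236, 245 and 263 CPM in the CRCM libraries, against 660, 746 and 703 CPM in the water libraries. The groups did not overlap, and on the log2 scale the fold change was -1.51 ± 0.13 (adjusted p = 2.4e-05). GUT1 read 604, 632 and 746 CPM with CRCM, against 725, 853 and 577 CPM with water. These groups overlapped and the log2 fold change was -0.12 ± 0.14 (adjusted p = 0.510), so the kinase and the dehydrogenase of the same route did not share a call. STL1, at the values given above, overlapped between the groups with a log2 fold change of 0.40 ± 0.28 (adjusted p = 0.251). Water replicates of STL1 spanned 846 to 1830 CPM.

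The phosphatase genes were higher with CRCM. GPP1 read 351, 258 and 252 CPM in the CRCM libraries, against 145, 95.6 and 143 CPM in the water libraries. GPP2 read 296, 244 and 242 CPM in the CRCM libraries, against 161, 140 and 165 CPM in the water libraries. Neither pair of groups overlapped, and the log2 fold changes were 1.16 ± 0.22 for GPP1 (adjusted p = 0.00207) and 0.73 ± 0.17 for GPP2 (adjusted p = 0.00662). Leaving out any 1 of the 6 libraries of CRCM and water kept the number of called genes at 5.

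With NRCM, 0 of the 7 genes were called against water at 24 h, where limma called 13.3% of 6577 genes, 6.98% higher and 6.28% lower, and gave 2072 genes an unadjusted p under 0.05. On recovered reads edgeR called 0 of the 7 and DESeq2 called 1, GPD2. The shares of all genes that these tools called in this comparison are not given here. GPD2 read 328, 337 and 393 CPM in the NRCM libraries, against 465, 400 and 473 CPM in the water libraries. The groups did not overlap, as for 31.4% of all genes, and the log2 fold change was -0.33 ± 0.10 (adjusted p = 0.0590). GPD1 had 1 NRCM library at 1007 CPM and the others at 388 and 352 CPM, on either side of the 3 water libraries, with a log2 fold change of 0.12 ± 0.32 (adjusted p = 0.834). Without NRCM 24 h replicate 1 the sign of GPD1 turned, to -0.34, and GPD1, GPP2 (0.36) and STL1 (0.92) were called. Without water 24 h replicate 2, GPD2 (-0.42) and STL1 (0.94) were called. The other log2 fold changes were -0.03 ± 0.22 for GPP1, 0.12 ± 0.17 for GPP2, 0.15 ± 0.14 for GUT1, 0.19 ± 0.13 for GUT2 and 0.67 ± 0.28 for STL1.

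Set directly against NRCM, CRCM gave at 24 h the calls it gave against water, and the comparisons share the CRCM libraries. GPD1 (-2.27 ± 0.32, adjusted p = 0.000598), GPD2 (-1.56 ± 0.10, adjusted p = 2.1e-05) and GUT2 (-1.70 ± 0.13, adjusted p = 3.3e-05) were lower on the log2 scale, and GPP1 (1.19 ± 0.22, adjusted p = 0.00241) and GPP2 (0.61 ± 0.17, adjusted p = 0.0200) were higher. These were 5 of 7, against 42.1% of all genes, 22.3% higher and 19.9% lower. For GUT2 the CRCM libraries, at 236 to 263 CPM, were set against 967, 693 and 761 CPM in the NRCM libraries. GUT1 was at -0.27 ± 0.14 and STL1 at -0.27 ± 0.28 (adjusted p = 0.157 and 0.447). Groups did not overlap for 6 of the 7, all except STL1, against 54.4% of all genes. For GUT1, which was not called, the CRCM libraries read at most 746 CPM and the NRCM libraries at least 766 CPM. Without CRCM 24 h replicate 1 the GPP2 call was lost, at a log2 fold change of 0.52.

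**Figure D3:**
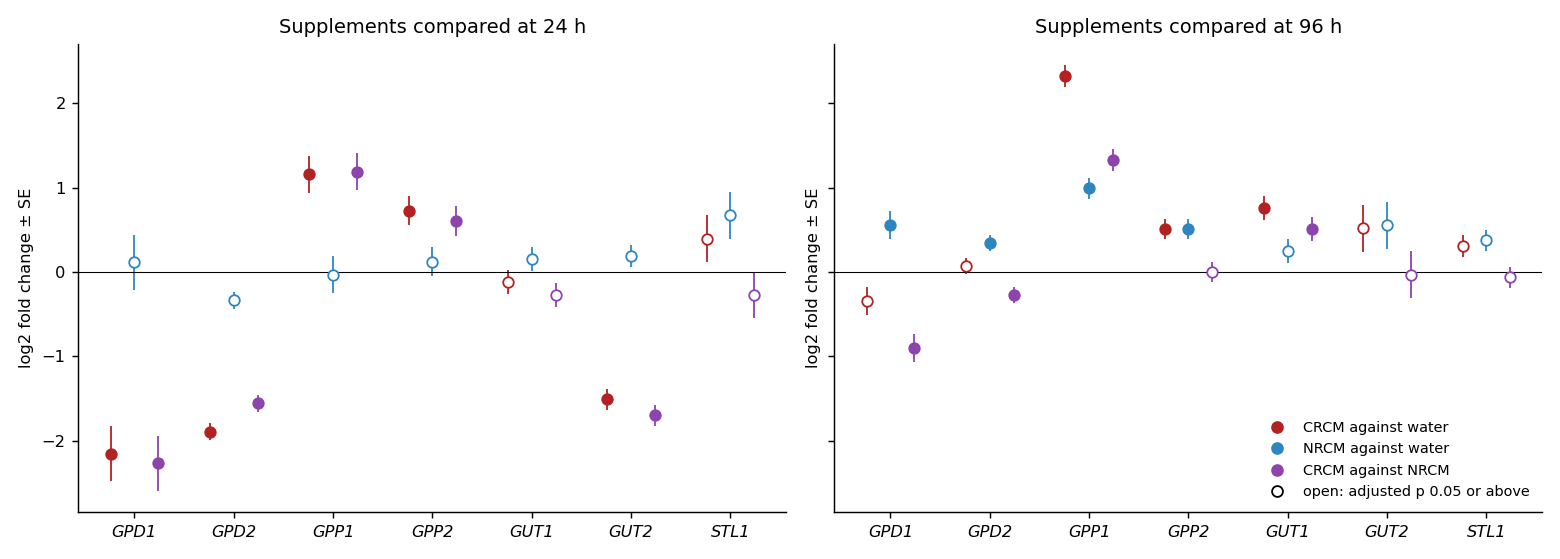
Log2 fold change ± SE of each gene between supplements at 24 h (left) and 96 h (right) on 1 vertical scale, for CRCM against water, NRCM against water and CRCM against NRCM, with open points where the adjusted p was 0.05 or above. At 24 h GPD1, GPD2 and GUT2 lie at -1.51 or below in the CRCM comparisons and all NRCM against water points are open, and at 96 h GPP1 lies at 2.32 for CRCM against water and 0.99 for NRCM against water.

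At 96 h the pattern among the 7 genes was another. GPP1 was 5.01-fold higher with CRCM than with water and 1.99-fold higher with NRCM than with water. GPD1 and GPD2, which had been lower with CRCM at 24 h, were not called for CRCM against water. For CRCM against water 3 of the 7 genes were called, GPP1, GUT1 and GPP2, all higher, where 41.3% of 6652 genes were called, 19.6% higher and 21.7% lower. The median of the 7 was 0.51 against -0.01 over all genes. For NRCM against water 4 of 7 were called, GPP1, GPD1, GPD2 and GPP2, all higher, where 24.5% were called, 12.6% higher and 11.9% lower. Groups did not overlap for 4 of the 7 for CRCM against water and 6 of 7 for NRCM against water, against 53.8% of all genes in each. For CRCM against NRCM it was 4 of 7, against 48%.

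GPP1 read 1242, 1091 and 1171 CPM in the CRCM libraries, 446, 526 and 392 CPM in the NRCM libraries and 246, 222 and 215 CPM in the water libraries. The 3 groups were wholly separate, and the CRCM mean of 1168 ± 75.5 CPM stood beside a log-phase mean of 1308 ± 63.1 CPM in CRCM cultures. The log2 fold change was 2.32 ± 0.13 for CRCM against water (adjusted p = 2.0e-06), larger in size than that of 99.4% of genes. It was 0.99 ± 0.13 for NRCM against water (adjusted p = 0.00124) and 1.33 ± 0.13 for CRCM against NRCM (adjusted p = 5.6e-05). Without CRCM 96 h replicate 3, the library with LEU2 and URA3 reads, the CRCM against water value was 2.34.

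GPP2 read 273, 272 and 244 CPM with CRCM, 263, 271 and 236 CPM with NRCM and 196, 155 and 193 CPM with water. CRCM and NRCM libraries overlapped each other and lay above all water libraries. The log2 fold change against water was 0.51 ± 0.12 for CRCM (adjusted p = 0.00581) and 0.51 ± 0.12 for NRCM (adjusted p = 0.0128), and between CRCM and NRCM it was 0.00 ± 0.12. Without CRCM 96 h replicate 3 the CRCM values were 0.58 against water and 0.07 against NRCM. The NRCM call was lost without NRCM 96 h replicate 1 (0.49) and without water 96 h replicate 2 (0.41).

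GPD1 at 96 h was highest with NRCM. It read 406, 292 and 254 CPM in the CRCM libraries, 592, 529 and 587 CPM in the NRCM libraries and 369, 372 and 420 CPM in the water libraries. NRCM lay above both other groups, and CRCM overlapped water. Between CRCM and NRCM the log2 fold change was -0.90 ± 0.16 (adjusted p = 0.00193), 0.56 ± 0.16 for NRCM against water (adjusted p = 0.0318) and -0.34 ± 0.16 for CRCM against water (adjusted p = 0.119). GPD1 against water was called lower with CRCM, at -0.54, once CRCM 96 h replicate 1 was left out. Without CRCM 96 h replicate 3 it was -0.18 (adjusted p = 0.300) and the CRCM against NRCM value was -0.74, still called. GPD2 was low in every group, at 131, 115 and 113 CPM with CRCM, 152, 137 and 136 CPM with NRCM and 115, 106 and 115 CPM with water. Its log2 fold change was 0.34 ± 0.10 for NRCM against water (adjusted p = 0.0274), -0.27 ± 0.10 for CRCM against NRCM (adjusted p = 0.0448), and 0.07 ± 0.10 for CRCM against water (adjusted p = 0.599), which was 0.12 without CRCM 96 h replicate 3. Both NRCM against water calls of the dehydrogenase genes were lost with any 1 of the 6 libraries left out, where the GPD1 values ran from 0.52 to 0.62 and the GPD2 values from 0.29 to 0.37. The GPD2 call for CRCM against NRCM was lost in 5 of 6 such fits, all except that without CRCM 96 h replicate 1, and stood at -0.22 without CRCM 96 h replicate 3.

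GUT1 read 410, 455 and 369 CPM with CRCM, 320, 248 and 278 CPM with NRCM and 261, 197 and 257 CPM with water at 96 h. CRCM lay above both other groups. Its log2 fold change was 0.76 ± 0.14 for CRCM against water (adjusted p = 0.00201), 0.51 ± 0.14 for CRCM against NRCM (adjusted p = 0.0186) and 0.25 ± 0.14 for NRCM against water (adjusted p = 0.221). The CRCM against NRCM call was lost without CRCM 96 h replicate 2 (0.42), NRCM replicate 2 (0.42) or NRCM replicate 3 (0.50). Without CRCM 96 h replicate 3 the values were 0.85 against water and 0.60 against NRCM, both still called.

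GUT2 at 96 h rested on a single library for its CRCM mean. It read 452, 406 and 1059 CPM with CRCM, the highest being replicate 3, 628, 571 and 539 CPM with NRCM and 394, 354 and 443 CPM with water. The log2 fold changes were 0.52 ± 0.28 for CRCM against water, 0.55 ± 0.28 for NRCM against water and -0.03 ± 0.28 for CRCM against NRCM, with adjusted p of 0.160, 0.172 and 0.942. Without CRCM 96 h replicate 3 they were 0.10 for CRCM against water, and -0.45 for CRCM against NRCM, now called lower. With all libraries DESeq2 called GUT2 higher for CRCM against water (0.67, adjusted p = 0.0426). STL1 read 604, 707 and 644 CPM with CRCM, 658, 611 and 725 CPM with NRCM and 573, 452 and 521 CPM with water. Both supplemented groups lay above water, by log2 fold changes of 0.31 ± 0.13 and 0.37 ± 0.13 (adjusted p = 0.0728 and 0.0550), neither of which limma called. DESeq2 on recovered reads called both, at 0.33 and 0.37 (adjusted p = 0.0190 and 0.0128).

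In CRCM against NRCM at 96 h 4 of the 7 genes were called, 2 higher and 2 lower, where 37% of genes were called, 17.3% higher and 19.7% lower. The number was 2 without CRCM 96 h replicate 2, NRCM 96 h replicate 2 or NRCM 96 h replicate 3. The 3 comparisons of a time point share libraries in pairs, so their values are set side by side and not counted as separate support.

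Between 24 h and 96 h STL1 and GUT1 fell in all 3 sets of cultures and GPP1 rose in all 3. The log2 fold change of STL1 was -1.35 ± 0.24 with CRCM, -1.58 ± 0.24 with NRCM and -1.28 ± 0.24 with water, and even so it stayed at 452 CPM or more. That of GUT1 was -0.68 ± 0.18, -1.48 ± 0.18 and -1.58 ± 0.18 in the same order of groups. GPP1 rose by 2.04 ± 0.18 with CRCM (adjusted p = 3.3e-09), 1.87 ± 0.18 with NRCM (adjusted p = 6.8e-09) and 0.85 ± 0.18 with water (adjusted p = 0.000278).

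GPD1 and GPD2 parted company over this interval. GPD1 rose by 1.53 ± 0.26 in CRCM cultures (adjusted p = 4.2e-05), and had log2 fold changes of 0.14 ± 0.26 in NRCM cultures and -0.31 ± 0.26 in water cultures (adjusted p = 0.662 and 0.321). Without NRCM 24 h replicate 1 the NRCM value was 0.62 and was called. GPD2 fell in NRCM cultures (-1.31 ± 0.11) and in water cultures (-1.98 ± 0.11, adjusted p = 1.7e-09 and 2.1e-12), while in CRCM cultures, where it was already low at 24 h, its mean was 120 ± 5.82 CPM at 24 h and 120 ± 9.86 CPM at 96 h. GUT2 rose by 1.22 ± 0.38 in CRCM cultures (adjusted p = 0.00975), a call that was lost without CRCM 96 h replicate 3 (0.79). Its log2 fold changes in NRCM and water cultures were -0.47 ± 0.38 and -0.83 ± 0.38 (adjusted p = 0.298 and 0.0660). With only the 6 libraries compared in the fit, GUT2 was called lower in both (-0.45 and -0.85, adjusted p = 0.0346 and 5.9e-05) and GPD1 was called lower in water cultures (-0.33, adjusted p = 0.0120). GPP2 rose by 0.60 ± 0.16 in NRCM cultures (adjusted p = 0.00221) and was not called in CRCM or water cultures. With CRCM 3 of the 7 rose and 2 fell, where 47.2% of all genes were called, 22.7% higher and 24.4% lower. With NRCM 2 rose and 3 fell, where 57.3% were called, 29.3% higher and 27.9% lower, and with water 1 rose and 3 fell, where 53.7% were called, 27.4% higher and 26.2% lower.

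The difference between CRCM and water cultures was itself compared between 96 h and 24 h, as an interaction term over the 27 libraries. It was called for 5 of the 7 genes, GPD1, GPD2, GPP1, GUT1 and GUT2, where 29.9% of 6658 genes were called, 15.6% higher and 14.3% lower. In all 5 the CRCM minus water difference was more positive at 96 h, which need not be a rise with CRCM. GPD2 averaged 120 CPM at both times with CRCM and fell from 446 to 112 CPM with water. GUT1 fell from 660 to 411 CPM with CRCM and from 718 to 238 CPM with water. The same interaction term for NRCM was called for 2 of 7, GPD2 and GPP1, where 1.4% of genes were called, 1.04% higher and 0.36% lower. The NRCM count ran from 0 to 3 when single libraries of the 4 groups were left out.

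Each step of glycerol synthesis has a pair of paralogs, and the share of each pair changed with time and supplement. GPD1 and GPD2 were 74.3% identical over 1168 aligned coding bases, and GPP1 and GPP2 82.7% over 753. No 36-base stretch of the first gene occurred in the second of either pair, and the longest identical run was 25 bases for GPD and 26 for GPP. Reads of that order could still be split between the copies, as the read length was not given in the sources used here, so the shares are uncertain to that extent.

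**Figure D4:**
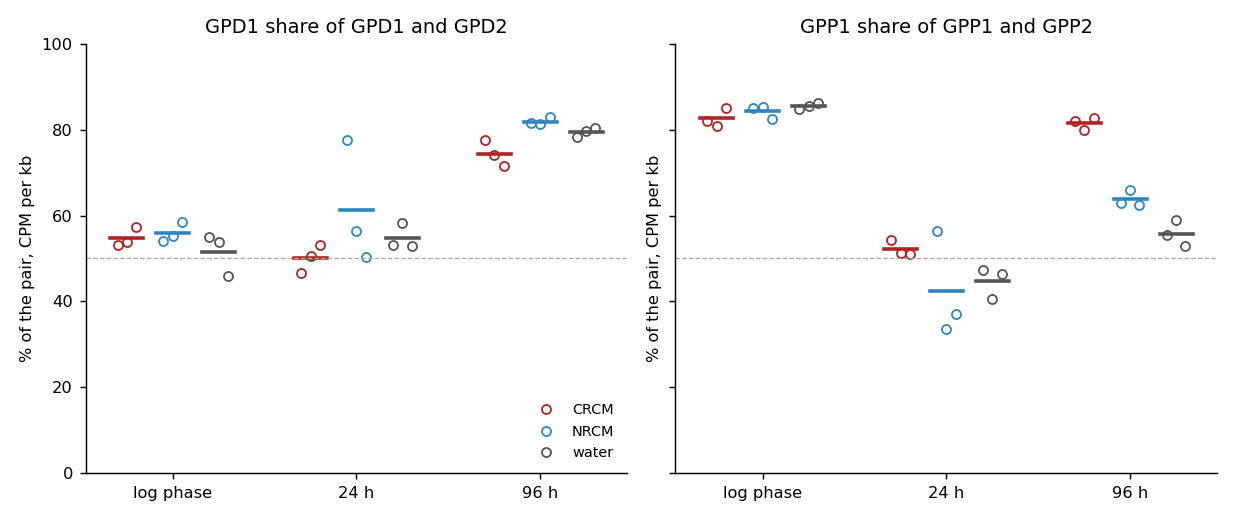
Share of GPD1 in the summed CPM per kilobase of GPD1 and GPD2 (left) and of GPP1 in that of GPP1 and GPP2 (right), in % on a vertical axis from 0 to 100, with 1 circle per library and a bar at the mean of 3 replicates. GPP1 made up 82.7% to 85.6% of its pair on average in log phase and at 96 h 81.6% with CRCM, 63.8% with NRCM and 55.7% with water.

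In log phase GPP1 made up 82.7% ± 2.19 of the phosphatase pair per kilobase in CRCM cultures, 84.3% ± 1.56 in NRCM cultures and 85.6% ± 0.717 in water cultures (SD, n = 3 each). At 24 h the means were 52.2% ± 1.83, 42.3% ± 12.3 and 44.8% ± 3.65. At 96 h they were 81.6% ± 1.42, 63.8% ± 1.95 and 55.7% ± 3.03. The pair was thus closer to even at 24 h with every supplement, and CRCM cultures at 96 h were again mostly GPP1, with no overlap between the 3 groups at that time. GPD1 made up 54.7% ± 2.23, 55.9% ± 2.27 and 51.6% ± 4.99 of the dehydrogenase pair in log phase, and 50.2% ± 3.26, 61.4% ± 14.3 and 54.7% ± 3.06 at 24 h. At 96 h it made up 74.4% ± 3.07, 81.9% ± 0.893 and 79.5% ± 1.12. The 96 h CRCM means include replicate 3, the library with LEU2 and URA3 reads. In it GPD1 made up 71.6%, beside 77.7% and 74.0% in CRCM replicates 1 and 2. GPP1 made up 82.8% in it, beside 82.0% and 80.0%. So at 24 h GPD1 and GPD2 were low together in CRCM cultures with their shares near even, and by 96 h GPD1 was the main dehydrogenase transcript in each library of that time.

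Around these 7 genes, 4 lists of the wider pathway were read in CRCM against water. Their 96 h values include CRCM 96 h replicate 3. Of 9 genes of the glycerol channel, the dihydroxyacetone route and uptake-related functions, 1 was higher and 2 were lower at 24 h, with a list median of -0.12, and 2 were higher and 5 lower at 96 h, with a list median of -0.49. At 24 h DAK1 (-1.22 ± 0.09) and DAK2 (-1.18 ± 0.09), the dihydroxyacetone kinases, were lower (adjusted p = 1.6e-05 and 1.3e-05), and GUP2 (0.64 ± 0.15) was higher (adjusted p = 0.00700). At 96 h FPS1 (0.36 ± 0.11), the glycerol export channel, and RGC1 (0.32 ± 0.10), its regulator, were higher, and DAK2 (-1.19 ± 0.12) and RGC2 (-0.64 ± 0.18) were lower. For NRCM against water the list had 0 higher and 1 lower at 24 h, and 0 higher and 3 lower at 96 h, where 13.3% and 24.5% of all genes were called.

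Of 16 genes of the high-osmolarity glycerol (HOG) pathway, the kinase cascade that turns on glycerol synthesis under osmotic stress, 2 were higher and 2 lower with CRCM at 24 h and again 2 and 2 at 96 h, with list medians of -0.01 and -0.11. At 24 h HOT1 (1.04 ± 0.11), a transcription factor of the pathway, and OPY2 (0.74 ± 0.11), a membrane anchor, were higher, and the kinase HOG1 (-0.91 ± 0.16) and the osmosensor MSB2 (-0.68 ± 0.12) were lower. At 96 h OPY2 (0.42 ± 0.13) and HOT1 (0.34 ± 0.11) were higher, and the factors SKO1 (-0.44 ± 0.09) and MSN1 (-0.39 ± 0.10) were lower. NRCM against water called 0 of the 16 at 24 h and 1 higher and 1 lower at 96 h, below the 13.3% and 24.5% of all genes.

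Of 10 regulators of GUT1, GUT2 and STL1, 2 were higher and 1 lower with CRCM at 24 h, and 1 was higher and 1 lower at 96 h. HAP4 (0.98 ± 0.26), the activating subunit of the CCAAT-binding complex, and INO4 (0.91 ± 0.10), an activator of phospholipid genes, were higher at 24 h, and the repressor OPI1 (-0.39 ± 0.09) was lower. At 96 h INO4 (0.51 ± 0.12) was higher and RSF1 (-0.42 ± 0.14) was lower. Of 7 genes that use glycerol 3-phosphate or oxidize NADH by other routes, 0 were higher and 1 lower at 24 h, TPI1 (-1.78 ± 0.26, adjusted p = 0.000507), the triosephosphate isomerase that draws on the same dihydroxyacetone phosphate as Gpd1. At 96 h NDE2 (1.83 ± 0.21, adjusted p = 0.000105), an external NADH dehydrogenase of mitochondria, and GPT2 (0.34 ± 0.12) were higher, and the NADH dehydrogenases NDE1 (-0.67 ± 0.18) and NDI1 (-0.39 ± 0.12) were lower. These shares lie at or below the 51.5% and 41.3% of all genes called in the same comparisons, except for the channel list and the NADH list at 96 h, where 7 of 9 and 4 of 7 were called. For NRCM against water, 0 of the 10 regulators were higher and 0 lower at 24 h, and 3 were higher and 1 lower at 96 h. In the NADH list 0 were higher and 0 lower at both times. Over all genes 13.3% were called at 24 h and 24.5% at 96 h.

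The likeness of time and supplement profiles was measured as the root mean square difference between standardized profiles of the 9 group means, over 6249 genes, where 0 is identical and the median gene stood between 1.28 and 1.40. Among the 7 genes, GUT1 and STL1 were most alike, at 0.23, then GUT2 and STL1 at 0.32 and GUT1 and GUT2 at 0.43, whereas GPD1 and GPD2 differed by 1.06 and GPP1 and GPP2 by 0.68. On this measure breakdown and uptake genes were thus closer to each other than either pair of synthesis paralogs, though each had nearer genes outside the 7. GUT2 still differed from GUT1 and STL1 in its call for CRCM against water at 24 h. Nearest to STL1 were SDH1, a succinate dehydrogenase subunit (0.053), and YBL065W (0.054). Nearest to GUT1 were AVT3, a vacuolar amino acid transporter (0.057), and MIR1, the mitochondrial phosphate carrier (0.064). Nearest to GUT2 were SGA1 (0.072) and SNZ3 (0.10).

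Nearest to GPP1 were MRS6 (0.23) and RRP14 (0.24), nearest to GPP2 were SRB6 (0.30) and BRE5 (0.35), and nearest to GPD2 were TSA1, a thioredoxin peroxidase (0.25), and ARC40 (0.27). For GPD1 the nearest gene was YDL023C (0.093), followed by SIS1, an Hsp40 cochaperone (0.30). YDL023C is the neighbour of GPD1 by systematic name and is not in the RefSeq table. Its CPM was 17.5% to 24.0% of that of GPD1 in every library, and its log2 fold change for CRCM against water at 24 h was -1.92 ± 0.36 (adjusted p = 0.00174). Whether the counting used strand was not given in the sources used here, so reads of YDL023C and of GPD1 cannot be told apart.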

How the data were processed

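RNA-seq was read for 27 libraries in 9 groups. According to the study's methods, poly(A) RNA was sequenced and aligned with Bowtie2 to sacCer3, and the submitters' processing notes also name bedtools, edgeR and DESeq2. The counting step, annotation, strand setting and trimming were not given in the sources used here. The table deposited by the authors is titled as counts, but its signal values are shares of each library, summing to 1 per column over 6692 genes, so a test on log values was used and count models served as alternatives. Whole reads were recovered by fitting each library's total. Of the values small enough to test (10.1%), 99.98% came out whole within 0.1 read.

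CPM, the share times 1000000, was divided by edgeR 4.0.16 TMM factors, and log2(CPM + 1) was tested with limma 3.58.1 (trend, empirical Bayes) in R 4.3.3, for genes that reached 1 CPM in 3 or more libraries, with Benjamini-Hochberg adjustment at 0.05. Supplements were compared within the 9 libraries of a time point, and times and interactions over all 27 libraries. Levels printed use factors over all 27 libraries. Alternatives were no TMM factors, no filter, pseudocounts of 0.5 and 4, edgeR and DESeq2 1.42.0 on recovered reads, a replicate block, other sample sets, and each replicate left out. On data simulated for CRCM against water, 92.5% of 2-fold and 50.7% of 1.5-fold changes were recovered at 24 h. The shares were 98.5% and 52.2% at 96 h, and 73.1% and 8.96% in log phase. In each simulation 67 genes were changed at each of these sizes, all well above the filter on low values. In the data 51.5% of genes were called at 24 h and 41.3% at 96 h, so recovery there may differ.

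Deviations from group means were correlated between same-numbered CRCM and NRCM libraries in log phase (0.47 to 0.74) and at 24 h (0.22 to 0.34). In no other comparison was every such correlation over 0.1. CRCM replicate 1 in log phase and CRCM replicate 3 at 24 h correlated more with an NRCM library of another number (0.59 and 0.35). Pairing by number is thus not established, and all fits were unpaired except the replicate block. The 7 genes and the pathway lists were chosen with earlier results of these data known. The named genes are the 7, up to 2 called higher and 2 called lower of each list by size in CRCM against water at 24 h and 96 h, and the 2 genes with the nearest profile. The sequence window from 450 bases before the start codon was added after the window nearer the gene had been read. The window of 1 of the 7 genes is not reported here.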

Additional observations from a re-analysis of the deposited data

Results flagged for a closer look

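The difference between CRCM and water cultures changed between 24 h and 96 h for 5 of the 7 genes, as tested by the interaction term of limma (96 h difference minus 24 h difference, log2 scale, Benjamini-Hochberg adjusted). For GPD1 the change was 1.83 ± 0.36 (SE, adjusted p = 0.000582), and for GPD2 it was 1.98 ± 0.16 (adjusted p = 4.8e-09). Both dehydrogenase genes were called lower for CRCM at 24 h, and neither was called against water at 96 h. For GUT2, the mitochondrial dehydrogenase of glycerol breakdown, the change was 2.05 ± 0.53 (adjusted p = 0.00536). Without CRCM 96 h replicate 3, the library with LEU2 and URA3 reads, it was 1.62 and still called. For GPP1 the change was 1.18 ± 0.25 (adjusted p = 0.00102), on top of a difference that was already positive at 24 h, and for GUT1 it was 0.90 ± 0.25 (adjusted p = 0.00865).

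The difference between NRCM and water cultures changed between 24 h and 96 h for GPD2, by 0.67 ± 0.16 (adjusted p = 0.0305), and for GPP1, by 1.02 ± 0.25 (adjusted p = 0.0392). The GPD2 call was lost in 8 of 12 fits with a single library left out, where the values ran from 0.62 to 0.75, and the GPP1 call in 9 of 12, where they ran from 0.84 to 1.22. The CRCM and NRCM terms share the water libraries.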

How the results depend on the processing

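Of 1778 values of single genes under the alternatives, 1701 kept their call with no called change of sign, and 77 did not. The sign differed from the reported value in 69, none of them a result that was called, at reported sizes of at most 0.47. The 1 change of sign that was called was GPD1 for NRCM against water at 24 h, at -0.34 (adjusted p = 0.0192) without NRCM 24 h replicate 1. With single libraries left out it ran from -0.34 to 0.40, and over its 14 alternatives the adjusted p ran from 0.0192 to 0.903. The number of the 7 genes called moved, for NRCM against water, to 2 at 96 h without TMM factors and to 1 at 24 h with DESeq2, and for CRCM against water at 96 h to 5 with DESeq2. For the NRCM interaction it was 0 without TMM factors. The shares of all genes that DESeq2 called for NRCM against water at 24 h and CRCM against water at 96 h are not given here. Its counts there thus do not set the 7 genes apart. With a single library left out, the number of the 7 genes called ran from 0 to 3 for NRCM against water at 24 h and from 1 to 2 at 96 h. It ran from 2 to 4 for CRCM against NRCM at 96 h and from 0 to 3 for the NRCM interaction. For CRCM against water it was 5 in all such fits at 24 h, 3 to 4 at 96 h and 5 for the interaction. The cause of these moves was not tested. A fit that leaves a library out has both fewer libraries and a different set of them.

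Without TMM factors the median of all genes moved to 0.42 for CRCM against water and 0.34 for CRCM against NRCM at 24 h, to -0.12 for CRCM against water at 96 h and to -0.55 for the CRCM interaction. The genes called were then 3777 higher and 656 lower for CRCM against water at 24 h (1792 and 1597 with the factors), 584 and 292 for NRCM against water (459 and 413), and 3450 and 544 for CRCM against NRCM (1464 and 1306). At 96 h they were 928 and 1878 for CRCM against water (1301 and 1446) and 489 and 1108 for NRCM against water (841 and 789). Between times they were 3375 and 1868 for CRCM at 24 h against log phase (2560 and 2503), 1967 and 1211 for CRCM at 96 h against 24 h (1513 and 1627), 3794 and 806 for NRCM (1953 and 1859) and 4570 and 602 for water (1826 and 1747), where the medians moved to 0.39, 0.13, 0.51 and 0.71. Other medians that moved were -0.14 for NRCM against water in log phase, -0.16 for water at 24 h against log phase and -0.17 for the NRCM interaction. For the interactions they were 401 and 3300 for CRCM (1039 and 954) and 25 and 46 for NRCM (69 and 24). DESeq2 called 143 and 53 for the NRCM interaction, and fitting all 27 libraries called 259 and 247 for NRCM against water at 24 h. Among the 7 genes, STL1 was called without TMM factors for CRCM against water at 24 h (0.82) and GPD1 at 96 h (-0.45), GPD1 for NRCM (0.65) and GPP2 for water (0.89) at 96 h against 24 h, and in the CRCM interaction GUT1 was lost (0.35) and GPP2 gained (-0.75).

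The replicate block changed no call among the 7 genes for CRCM against NRCM in log phase and at 24 h, where same-numbered libraries correlated. Elsewhere it ended the GPD2 call for CRCM against NRCM at 96 h (-0.27, adjusted p = 0.0585) and added GUT2 for water at 96 h against 24 h (-0.83, adjusted p = 0.0226). Fitting all 27 libraries ended the GPD1 call for NRCM against water (0.56) and the GPD2 call for CRCM against NRCM (-0.24) at 96 h. Leaving out the 3 log-phase libraries numbered 3, in which GUT2 was highest, was chosen after seeing the data and ended only the GPP2 call for water at 24 h against log phase (-0.36). In log phase the simulated recovery of 1.5-fold changes was too low to read an uncalled gene as unchanged.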

Other observations

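Of the 16 HOG pathway genes, 6 were called higher and 2 lower between 24 h and 96 h in CRCM cultures, 9 higher and 2 lower in NRCM cultures and 10 higher and 1 lower in water cultures. Over all genes 47.2%, 57.3% and 53.7% were called in either direction in these comparisons. The list medians were 0.15 with CRCM, 0.40 with NRCM and 0.40 with water on the log2 scale. Between log phase and 24 h the counts were 4 higher and 6 lower in CRCM cultures, 4 and 5 in NRCM cultures and 2 and 5 in water cultures, where 76%, 78.5% and 76.1% of all genes were called. Whether the supplements differed in these list counts was not tested.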
